A study of Homo sapiens with 12 samples.

Results

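The comparison described here sets 3 libraries of cells given a plasmid for wild-type MSX1 beside 3 libraries of cells given the empty plasmid, called Vector. It covers all 665 genes of the deposited table for which expression values could be obtained, of 666 listed. Every library is labelled as HEPM, human embryonic palatal mesenchymal cells, with a time of 8 h and with plasmid transfection as the treatment. The paper's methods instead name primary mouse palatal mesenchymal cells for the sequencing, while the table carries human gene IDs, and the labels were followed. The MSX1 group is labelled as overexpressing wild-type MSX1 and the Vector group as carrying the plasmid without it. A further 3 libraries each carried the MSX1 mutants K139R and K139Q and were used only for values set beside those of MSX1. In both mutant groups the library name gives a different amino acid change from the title, so which allele these libraries hold is uncertain, and the titles were followed. The paper's methods describe a GFP-tagged MSX1 plasmid, but whether that construct was sequenced, and whether Vector carried GFP, is not given in the sources used here. The labels number the replicates as batches. For 2 of the 3 MSX1 libraries the title carries another number than the library name, and the title was followed.

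MSX1 is a homeodomain transcription factor of the mesenchyme that derives from the neural crest, and it acts mainly by repressing transcription. It binds DNA at sites built around the core TAATTG, works downstream of and together with BMP signals, and holds progenitor cells back from differentiation, for example by repressing Myod1 in mouse muscle precursors. Its loss in mice gives a cleft palate and arrested teeth.

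The authors kept only genes that they had called different between these 2 groups, so the direction of each listed gene was fixed by that choice. Sizes, levels and families are therefore described, and no p-value is given. An expression value below is the number recovered from the authors' scaled scores, in steps of 0.01, in a unit that is not given in the sources used here. A difference is that of the group means of log2(value + 1), MSX1 minus Vector, which is smaller than the plain log2 ratio for low values. The means are written ± SD with n = 3. The paper's methods give a target depth, but the reads obtained per library are not given in the sources used here, so no counting error is attached, and whether the replicates are separate cultures is stated in the paper's methods only as biological replicates. The labelled cell type could not be checked on this table, which lists 2 of 15 mesenchymal markers, COL1A1 and S100A4.

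Promoter windows of 4 genes are shown to set the base composition and the homeodomain core before the values. They span 250 bases before to 50 bases after the start site in RefSeq (GRCh38.p14), 5′ to 3′ on the gene's strand. The first 2 belong to the genes with the largest positive and the largest negative difference, by the naming rule of the methods, that have a window, with each CG in capitals: GADD45B at chr19:2475877-2476176 (plus strand, 61.7% GC, 27 CG) and TIPARP at chr3:156674340-156674639 (plus strand, 71% GC, 41 CG). The other 2 belong to the genes with the largest difference in each direction among those whose window holds TAATTG, read on either strand and shown in capitals: CCDC69 at chr5:151224043-151224342 (minus strand) and ALB at chr4:73404037-73404336 (plus strand, where the capitals CAATTA are the complement).
GADD45B: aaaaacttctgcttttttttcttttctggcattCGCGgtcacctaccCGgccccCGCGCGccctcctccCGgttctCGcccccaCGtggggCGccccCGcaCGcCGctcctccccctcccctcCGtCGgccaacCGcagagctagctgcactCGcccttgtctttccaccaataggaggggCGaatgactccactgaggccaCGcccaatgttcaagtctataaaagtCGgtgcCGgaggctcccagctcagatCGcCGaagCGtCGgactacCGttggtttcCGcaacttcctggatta
TIPARP: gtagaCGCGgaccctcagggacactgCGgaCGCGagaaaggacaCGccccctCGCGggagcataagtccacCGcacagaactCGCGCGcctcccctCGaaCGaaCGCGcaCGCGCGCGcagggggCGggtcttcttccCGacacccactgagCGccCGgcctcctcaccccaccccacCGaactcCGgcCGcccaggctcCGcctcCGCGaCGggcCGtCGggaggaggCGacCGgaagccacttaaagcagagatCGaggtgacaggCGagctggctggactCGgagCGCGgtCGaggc
CCDC69: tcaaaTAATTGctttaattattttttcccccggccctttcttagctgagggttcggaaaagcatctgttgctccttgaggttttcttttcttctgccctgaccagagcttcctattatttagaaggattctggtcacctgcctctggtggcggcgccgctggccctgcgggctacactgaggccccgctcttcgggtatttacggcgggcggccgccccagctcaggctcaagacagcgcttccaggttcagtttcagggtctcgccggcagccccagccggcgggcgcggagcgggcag
ALB: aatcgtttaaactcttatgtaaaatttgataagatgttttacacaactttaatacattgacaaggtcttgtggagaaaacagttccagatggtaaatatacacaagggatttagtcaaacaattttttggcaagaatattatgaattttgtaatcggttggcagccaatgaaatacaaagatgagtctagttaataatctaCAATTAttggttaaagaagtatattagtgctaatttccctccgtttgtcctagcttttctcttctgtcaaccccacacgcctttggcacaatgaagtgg

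MSX1 (ENSG00000163132) had expression values of 6554, 4672 and 6959 in the MSX1 libraries, against 20.3, 17.2 and 18.7 in the Vector libraries. The groups were far apart, with means of 6062 ± 1220.5 in MSX1 and 18.7 ± 1.57 in Vector, a ratio of 324. The value sums plasmid and endogenous transcripts. MSX1 replicate 2 had the lowest value of the group.

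By group means 480 of the 665 genes were higher and 185 lower in MSX1 than in Vector. All 3 MSX1 libraries lay above all 3 Vector libraries for 455 genes, which is 68.4% of the genes, and below them for 148, which is 22.3%. The libraries overlapped for the other 62, of which 25 were higher and 37 lower by the means. The median difference was 0.59 over all genes, 0.83 over the higher and -0.70 over the lower genes. On this scale, which makes the differences of low values smaller, most sizes were modest. A difference of at least 1 was reached by 156 genes, and one of at most -1 by 24. By the plain ratio of group means 103 higher genes reached 4-fold, 343 lay from 2-fold to under 4-fold and 33 were under 2-fold, and 1 had only values of 0 in Vector. Of the lower genes 26 reached 4-fold, 108 lay from 2-fold to under 4-fold and 50 were under 2-fold, and 1 had only values of 0 in MSX1. The cutoff that the paper states, a log2 fold change of at least 2, equals 4-fold, so most listed genes lay below it by these ratios. The reason is not given in the sources used here.

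**Figure D1:**
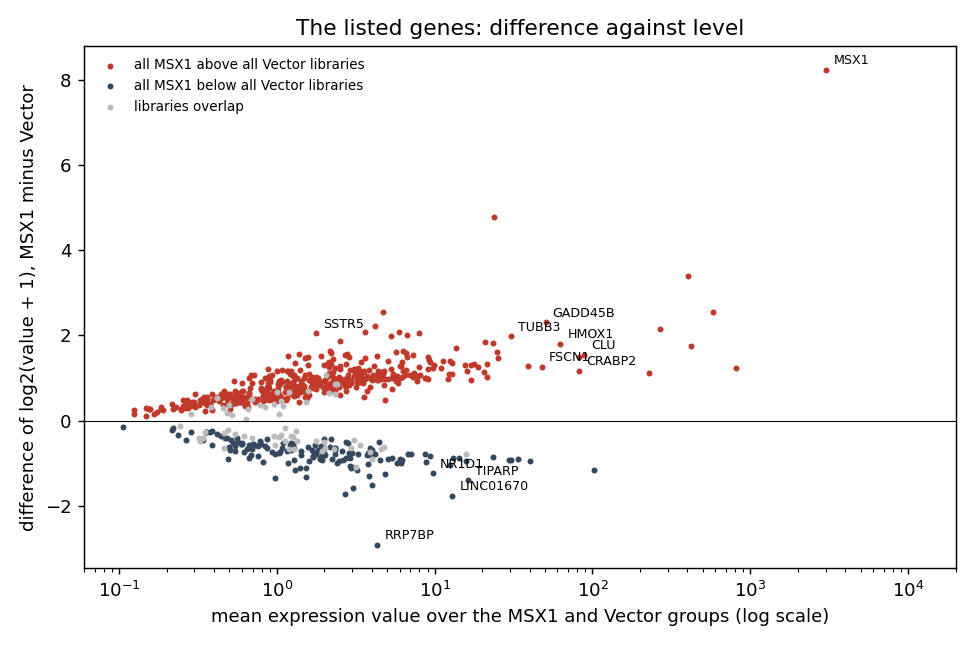
Difference of log2(value + 1), MSX1 minus Vector, against the mean expression value of both groups on a log scale, 1 point per gene for 665 genes. Red and dark points are the 455 and 148 genes whose libraries do not overlap, grey points the 62 that do. MSX1 stands at 8.25, and most points lie at mean values under 10.

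The listed genes were mostly of low level. In the group where it was higher, the mean was under 1 for 116 of the 480 higher genes and 10 or more for 58. The same held for 40 and 17 of the 185 lower genes. Only 10 higher genes and 1 lower gene reached a mean of 100 in either group. The median of the means over the higher genes was 2.12 in MSX1 and 0.75 in Vector, and over the lower genes 0.96 in MSX1 and 2.40 in Vector.

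Lists of heat shock, Notch, histone and immediate early genes took up 32 of the 665 genes and were set aside, with 9, 8, 0 and 7 higher and 0, 1, 7 and 0 lower genes. Outside them, the 20 largest positive differences by the naming rule were led by genes of growth arrest, of neurons and of the extracellular matrix. GADD45B (ENSG00000099860), a stress-induced gene of growth arrest, had values of 89.4, 76.0 and 88.1 in MSX1, against 15.4, 17.1 and 16.3 in Vector, a difference of 2.31. VGF (ENSG00000128564), a precursor of secreted neuropeptides, had 8.37, 5.62 and 8.79 in MSX1, against 1.01, 0.73 and 0.68 in Vector, a difference of 2.23. SNCG (ENSG00000173267), the synuclein gamma gene, had 10.2, 9.55 and 11.1 in MSX1, against 1.95, 1.36 and 1.68 in Vector, a difference of 2.09. In each of these the lowest MSX1 library was above every Vector library by more than the whole spread of either group. L1CAM (ENSG00000198910), a neural cell adhesion molecule, had 5.69, 6.56 and 6.96 in MSX1, against 1.25, 0.60 and 0.51 in Vector. SSTR5 (ENSG00000162009), a somatostatin receptor, had 3.72, 3.63 and 3.06 in MSX1, against 0.08, 0.12 and 0.03 in Vector. Its ratio of means was 45.3, beside a difference of 2.05, because the Vector values lay near 0. TNC (ENSG00000041982), the matrix glycoprotein tenascin C, had 12.6, 9.55 and 11.8 in MSX1, against 2.40, 2.19 and 1.59 in Vector, a difference of 2.01.

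Further positive differences belonged to stress-responsive and neural genes. HMOX1, the heme oxygenase induced by oxidative stress, averaged 97.4 ± 11.50 in MSX1 and 27.6 ± 7.22 in Vector. GDF15, a secreted stress cytokine of the TGF-beta superfamily, averaged 32.9 ± 4.51 in MSX1 and 8.57 ± 2.64 in Vector. CLU, the extracellular chaperone clusterin, averaged 132 ± 19.3 in MSX1 and 45.5 ± 13.9 in Vector. All 3 genes were separated without overlap, as the naming rule required, with differences of 1.81, 1.86 and 1.55. PHLDA2, an imprinted gene of placental growth, averaged 37.2 ± 0.47 in MSX1 and 9.86 ± 2.19 in Vector. H19, an imprinted long non-coding RNA, averaged 4.62 ± 0.81 in MSX1 and 0.91 ± 0.25 in Vector. NGFR, the neurotrophin receptor p75, averaged 3.78 ± 1.01 in MSX1 and 0.53 ± 0.21 in Vector. S100A4, a calcium-binding protein of motile mesenchymal cells, had 10.1, 10.6 and 6.09 in MSX1, against 1.66, 3.78 and 1.57 in Vector. TCEAL7, TUBB3, TUBA4A, IL11, PLPP2, OLFM1 and TMEM52 completed the 20, with differences between 1.55 and 1.98.

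**Figure D2:**
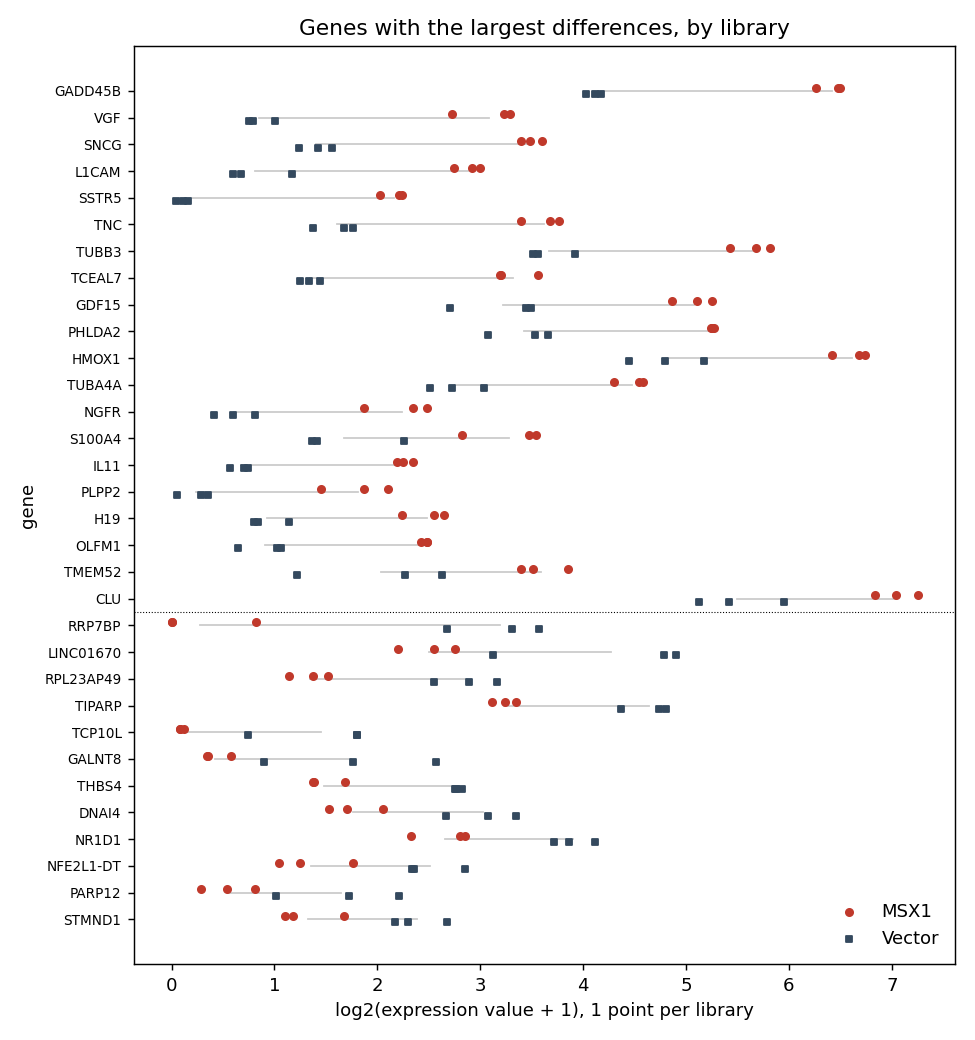
The 20 largest positive differences (above the dotted line) and 12 largest negative differences (below it) outside the 4 lists set aside, as log2(expression value + 1) in each of the 3 MSX1 libraries (circles) and the 3 Vector libraries (squares), with a line between the group means. The groups of none of the 32 genes overlap, as the naming rule required, and LINC01670 and GALNT8 have the most scattered Vector libraries.

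The largest negative differences were of another kind, with pseudogenes and non-coding genes beside enzymes. RRP7BP (ENSG00000182841), a pseudogene, had 0, 0 and 0.77 in MSX1, against 8.93, 5.41 and 10.9 in Vector, a difference of -2.91. LINC01670, a long non-coding RNA gene, had 5.74, 4.86 and 3.59 in MSX1, against 28.9, 26.6 and 7.71 in Vector, so that 1 Vector library lay near the MSX1 libraries. RPL23AP49, a pseudogene of a ribosomal protein, had 1.20, 1.87 and 1.59 in MSX1, against 7.94, 6.39 and 4.87 in Vector. Reads of a pseudogene can be shared with its parent, so these levels are uncertain. TIPARP (ENSG00000163659), which encodes a mono-ADP-ribosyltransferase and is a target of the dioxin receptor AHR, had 7.67, 8.44 and 9.17 in MSX1, against 26.9, 19.6 and 25.8 in Vector, a difference of -1.40. PARP12, another mono-ADP-ribosyltransferase, had 0.45, 0.22 and 0.75 in MSX1, against 3.63, 1.02 and 2.31 in Vector. THBS4, a thrombospondin of the matrix, had 1.61, 1.59 and 2.22 in MSX1, against 5.75, 6.06 and 5.79 in Vector. The Vector values of THBS4 lay within a narrow range, well above MSX1. NR1D1, a nuclear receptor of the circadian clock, had 5.98, 4.0 and 6.24 in MSX1, against 16.4, 12.1 and 13.5 in Vector. DNAI4, an intermediate chain of axonemal dynein, had 1.89, 3.16 and 2.25 in MSX1, against 9.16, 5.33 and 7.43 in Vector. TCP10L, GALNT8, NFE2L1-DT and STMND1 completed the 12, with differences between -1.35 and -1.06. GALNT8, a gene of the family that starts O-linked glycans, had 0.28, 0.49 and 0.27 in MSX1, against an uneven 4.92, 0.86 and 2.40 in Vector.

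Of the 49 families searched by symbol, 46 held a listed gene and 38 held at least 3. Family sizes are those found in a reference table of 40871 symbols. As background, 2.81% of the protein-coding genes of GENCODE v29 were listed. A family's counts of members without overlap are read against the 68.4% and 22.3% given above. Its counts of higher and lower members by the means are read against 480 and 185 of the 665 genes. Since 480 of 665 genes were higher, a family in which most members were higher did not stand apart for that. The median of a family with all members higher is read beside 0.83, that of the higher genes, as the median of all genes includes lower ones.

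Secreted signals and their receptors made up several families. The secreted growth factor list had 10 of 103 genes in the table, all higher and 9 of them without overlap. Its median difference was 1.05, beside 0.59 over all genes and 0.83 over the higher genes. PGF, a placental growth factor of the VEGF family, averaged 24.5 ± 0.815 in MSX1 and 9.43 ± 1.63 in Vector. IGF2, an insulin-like growth factor, averaged 3.25 ± 0.16 in MSX1 and 0.74 ± 0.28 in Vector. NRTN, a ligand of the GDNF family, averaged 4.97 ± 0.89 in MSX1 and 1.52 ± 0.37 in Vector. The receptor kinase list had 6 of 71 genes, all higher by the means, with a median of 0.72. EPHA2, an ephrin receptor, averaged 12.97 ± 1.02 in MSX1 and 5.13 ± 1.19 in Vector, and RET, through which GDNF-family ligands such as neurturin signal, averaged 1.41 ± 0.80 in MSX1 and 0.35 ± 0.08 in Vector. ACVRL1 and ERBB3, receptors for TGF-beta superfamily ligands and for neuregulins, had differences of 0.74 and 0.70.

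The cytokine list had 12 of 239 genes, with 10 higher and 2 lower and a median of 0.87. IL11, a cytokine of the IL-6 family, had 3.75, 4.07 and 3.58 in MSX1, against 0.48, 0.63 and 0.67 in Vector. IL32 had 8.10, 6.64 and 5.87 in MSX1, against 0.95, 2.08 and 2.33 in Vector. TNFSF9, the ligand of a costimulatory receptor, averaged 14.5 ± 1.40 in MSX1 and 5.30 ± 0.14 in Vector, and TNFRSF25, a death receptor, averaged 7.05 ± 0.44 in MSX1 and 3.09 ± 0.58 in Vector. Both lower members were interleukins at low levels. IL17F averaged 0.98 ± 0.17 in MSX1 and 2.45 ± 1.05 in Vector without overlap, and IL16 averaged 0.76 ± 0.54 in MSX1 and 1.80 ± 0.94 in Vector with overlap, a difference of -0.67 that became -0.40 without MSX1 replicate 2 and -0.41 without Vector replicate 1.

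The WNT list had 10 of 87 genes, all higher and all without overlap, with a median of 0.86. It held ligands, a receptor and antagonists together. The ligand WNT6 had 4.59, 2.08 and 1.85 in MSX1, against 0.42, 0.46 and 0.05 in Vector, and WNT7B averaged 1.54 ± 0.35 in MSX1 and 0.23 ± 0.085 in Vector. NOTUM, an enzyme that inactivates WNT ligands, had 3.41, 2.28 and 2.31 in MSX1, against 0.49, 0.42 and 0.50 in Vector. KREMEN2, a receptor for the DKK antagonists, averaged 4.49 ± 0.75 in MSX1 and 1.64 ± 0.10 in Vector. SKIL, a co-repressor that holds SMAD proteins of the TGF-beta pathway back and was named after its value had been seen, averaged 5.54 ± 0.247 in MSX1 and 12.01 ± 2.19 in Vector (difference -0.98).

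G protein-coupled receptors contributed 20 of 756 genes, all higher by the means and 19 without overlap, at a median of 0.70. Apart from SSTR5, the largest was GPR50, an orphan receptor related to the melatonin receptors, with 8.27, 9.34 and 9.27 in MSX1, against 3.55, 3.69 and 2.13 in Vector. GIPR, the receptor of a gut hormone, averaged 2.70 ± 1.06 in MSX1 and 0.82 ± 0.43 in Vector. S1PR5, a receptor of sphingosine 1-phosphate, averaged 2.16 ± 0.23 in MSX1 and 0.67 ± 0.12 in Vector. In 6 of the 20 both means were under 1.

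Ion channels were the most numerous family, with 24 of 299 genes, 23 higher and 1 lower, and a median of 0.65. LRRC8E, a subunit of volume-regulated anion channels, had 14.02, 15.5 and 12.5 in MSX1, against 5.21, 3.98 and 5.11 in Vector. KCNH2, a potassium channel of the heart, averaged 4.45 ± 0.69 in MSX1 and 1.39 ± 0.06 in Vector. SCN4B, an accessory subunit of sodium channels, averaged 2.39 ± 0.08 in MSX1 and 0.63 ± 0.225 in Vector. ANO9, of the anoctamin family, rested on 1 library, with 0.24, 4.54 and 0.62 in MSX1, against 0.02, 0.06 and 0.09 in Vector. Its difference of 1.08 became 0.42 without MSX1 replicate 2. The lower member was GABRR2, a subunit of GABA-gated chloride channels, with 0.78, 0.61 and 0.91 in MSX1, against 2.60, 2.07 and 2.54 in Vector. In 8 of the 24 genes both means were under 1. Solute carriers had 8 of 529 genes, with 7 higher and SLC5A11, of the sodium-coupled sugar transporter family, lower (difference -0.72). ABC transporters and P-type ATPases had 5 of 91, all higher, led by the cholesterol exporter ABCG1 with 3.49, 3.22 and 3.59 in MSX1, against 1.17, 0.69 and 0.69 in Vector.

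Neural genes stood in several lists, beside members that are not particular to neurons, such as MCAM below. The synaptic vesicle list had 12 of 157 genes, all higher by the means and 11 without overlap, at a median of 0.79. After VGF came SYTL1, a synaptotagmin-like protein, with 6.39 ± 1.54 in MSX1 and 2.40 ± 0.79 in Vector. The calcium sensor of exocytosis SYT2 averaged 2.04 ± 0.26 in MSX1 and 0.48 ± 0.03 in Vector, and NPTX2, a secreted pentraxin of synapses, averaged 12.4 ± 1.60 in MSX1 and 5.75 ± 0.19 in Vector. SYT16, at 0.65 and 0.63 in MSX1 and Vector, had the smallest difference of all listed genes at 0.05, and its libraries overlapped. The neural and immunoglobulin-type adhesion list had 11 of 151 genes, all higher and without overlap, at a median of 0.94. MCAM, an adhesion molecule of vessels and melanoma, averaged 26.9 ± 3.16 in MSX1 and 10.7 ± 0.29 in Vector. The adhesion molecule NECTIN4 averaged 4.67 ± 0.23 in MSX1 and 1.47 ± 0.41 in Vector, and LRRC4B, a postsynaptic adhesion molecule, 9.08 ± 1.38 in MSX1 and 3.46 ± 0.36 in Vector. ICAM1, ICAM4 and ICAM5, which lie next to each other on chromosome 19, were all higher, with differences of 0.70, 0.94 and 1.09.

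The list of axon guidance genes had 9 of 81 genes, all higher by the means and 8 without overlap, at a median of 0.90. The ephrin EFNA3 had 22.4, 22.4 and 23.02 in MSX1, against 9.16, 7.47 and 8.95 in Vector. EFNA1, another membrane-anchored ligand of EPH receptors, averaged 22.4 ± 1.02 in MSX1 and 9.40 ± 0.43 in Vector. The groups of both ephrins lay far outside each other's spread. PLXNB3, a semaphorin receptor, averaged 2.36 ± 1.19 in MSX1 and 0.61 ± 0.07 in Vector, and NTNG2, a netrin of the G type, overlapped with 3.35, 1.47 and 4.62 in MSX1, against 1.56, 1.04 and 0.24 in Vector.

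The tubulin list had 8 of 202 genes, 6 higher and 2 lower, at a median of 1.26. TUBB3, the beta-tubulin of neurons, had 55.2, 42.2 and 50.3 in MSX1, against 14.1, 10.8 and 10.4 in Vector. TUBA4A, an alpha-tubulin, averaged 21.3 ± 2.31 in MSX1 and 5.83 ± 1.27 in Vector, and MAP1A, a microtubule-associated protein of neurons, 5.35 ± 0.16 in MSX1 and 1.44 ± 0.25 in Vector. TUBBP5, a tubulin pseudogene whose reads may belong to other tubulins, had 3.26, 0.16 and 3.65 in MSX1 and was listed at 0 in every Vector library. TUBA8, another alpha-tubulin, went the other way with 2.22, 2.20 and 2.92 in MSX1, against 5.77, 4.16 and 5.08 in Vector. KIF6, a kinesin, overlapped (difference -0.24, 0.15 with the GC trend described below removed, and -0.12 without MSX1 replicate 1 or -0.15 without Vector replicate 3). Neuronal or glial markers gave 5 of 16 genes, all higher, with summed values of 58.9 to 81.1 in MSX1 and 15.1 to 19.8 in Vector, most of it from TUBB3. RBFOX3, also among them, rested partly on MSX1 replicate 1, as given under the other observations. The mesenchymal, epithelial, blood and skeletal muscle marker lists had 2 listed genes each, also all higher, and the endothelial list 0 of 7. In bulk RNA, fewer cells of a type and less RNA per cell cannot be told apart. The part of other cell types in these differences was not tested.

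The matrix list had 12 of 118 genes, 11 higher and 1 lower, with a median of 0.59 that equalled that of all genes. TNC and THBS4 were its extremes. VWA1, a basement membrane protein, averaged 9.23 ± 2.04 in MSX1 and 3.78 ± 0.40 in Vector, and IGFBP4, a binding protein of insulin-like growth factors, 5.89 ± 0.66 in MSX1 and 2.28 ± 0.42 in Vector. Collagens had 3 of 44 genes, all higher without overlap, with COL1A1, a chain of type I collagen, at 11.48, 7.75 and 12.5 in MSX1, against 5.14, 4.19 and 3.60 in Vector. The metalloprotease list had 7 of 110 genes, all higher and without overlap, at a median of 1.10. ADAMTS7, a protease of cartilage matrix, averaged 6.29 ± 1.12 in MSX1 and 1.99 ± 0.51 in Vector. MMP15 and MMP17 are proteases held in the cell membrane, and they had differences of 1.15 and 1.10. The values of MMP17 came close between the groups, with 7.04, 4.11 and 9.09 in MSX1, against 2.98, 3.70 and 1.24 in Vector.

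Cytoskeletal and junction genes were also listed. The actin and sarcomere list had 8 of 157 genes, 7 higher and 1 lower, at a median of 0.91. TNNT1, a troponin of slow skeletal muscle, had 56.1, 52.5 and 56.8 in MSX1, against 19.4, 35.0 and 15.5 in Vector, and CNN2, a calponin, averaged 22.9 ± 2.01 in MSX1 and 11.3 ± 1.61 in Vector. MYH15, a myosin heavy chain, was the lower member, at 0.37 ± 0.085 in MSX1 and 1.07 ± 0.27 in Vector. FSCN1, an actin-bundling protein outside these lists and named after its value had been seen, averaged 67.9 ± 10.2 in MSX1 and 27.5 ± 2.06 in Vector. GTPases and their regulators had 14 of 423 genes, all higher by the means, at a median of 0.93, led by the small GTPases RASL10A and RRAD and the exchange factor ARHGEF16 with differences of 1.28, 1.17 and 1.09. The keratin and junction list had 11 of 295 genes, 9 higher and 2 lower, at a median of 0.96. KRT17, a keratin of basal epithelia, averaged 3.48 ± 0.14 in MSX1 and 1.03 ± 0.30 in Vector, SFN, the 14-3-3 protein sigma, averaged 1.89 ± 0.49 in MSX1 and 0.26 ± 0.10 in Vector, and TJP3, a tight junction scaffold, 2.01 ± 0.38 in MSX1 and 0.35 ± 0.20 in Vector. The lower members were the keratin pseudogene KRT8P12 and EVPL, the envoplakin gene of the cornified envelope, which was near 0 with 0.03, 0.06 and 0.05 in MSX1, against 0.22, 0.12 and 0.15 in Vector.

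Transcription factors gave smaller families. Besides MSX1, the homeobox list had 5 of 264 genes, all higher without overlap, and only NKX1-2 and IRX4 reached a mean of 1. NKX1-2 averaged 3.49 ± 0.24 in MSX1 and 1.33 ± 0.37 in Vector. The list of forkhead, SOX and related factors had 10 of 184 genes, 7 higher and 3 lower, among them TBXA2R, a thromboxane receptor that its symbol pattern caught. SOX8, a factor of neural crest and glia, had 11.3, 7.31 and 9.62 in MSX1, against 3.59, 2.67 and 2.68 in Vector. FOXA3 and FOXJ1 had differences of 0.95 and 0.89, and FOXJ1 is known as a regulator of motile cilia. NR1D1, TBX15 and the orphan nuclear receptor ESRRG were the lower members, though ESRRG was at 0.27 with the GC trend described below removed. The zinc finger list had 11 of 804 genes, 8 higher and 3 lower. SNAI1, a repressor of E-cadherin in mesenchymal transition, averaged 3.70 ± 0.68 in MSX1 and 0.99 ± 0.26 in Vector, and ZNF385A averaged 17.8 ± 2.26 in MSX1 and 7.81 ± 0.56 in Vector. Its lower members ZNF596 and ZFP2 overlapped, and ZBTB20 averaged 0.123 in MSX1 and 0.31 in Vector, a difference of -0.22 that was 0.30 with that GC trend removed. The differences of ZNF596 and ZFP2 were 0.11 and 0.00054 with that trend removed. That of ZNF596, -0.45, became -0.27 without MSX1 replicate 1, -0.23 without Vector replicate 1 and -0.73 without MSX1 replicate 3. MYOD1, the muscle regulator whose mouse gene MSX1 represses, was higher here at low values, with 0.66 ± 0.232 in MSX1 and 0.15 ± 0.0231 in Vector.

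The growth arrest and cell death list had 6 of 56 genes, all higher without overlap, with a median of 1.53, the highest among the families with 3 or more listed genes outside the lists set aside. Besides GADD45B, GDF15 and PHLDA2 it held CDKN1C, a cyclin-dependent kinase inhibitor, at 14.03 ± 1.90 in MSX1 and 5.44 ± 1.10 in Vector. SFN, given above with the junction genes, had a difference of 1.19. BIK, a BH3-only killer protein named outside the naming rule, had the smallest difference of the list, 0.92. It averaged 4.01 ± 0.212 in MSX1 and 1.66 ± 0.313 in Vector. The cell cycle list had 1 of 128 genes in the table (0.781%), CCNB3, a cyclin whose libraries overlapped (difference -1.10). The list of the unfolded protein and amino acid responses had 0 of 50. With 2.81% of all protein-coding genes listed, counts this small are not read as a contrast. The oxidative stress list had 2 of 50, HMOX1 and OSGIN1. Genes that are not in the table were not analysed here.

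Immune and metabolic genes completed the families. The interferon and antigen presentation list had 11 of 148 genes, all higher without overlap, at a median of 0.82. IFI30, a lysosomal thiol reductase, had 43.3, 29.2 and 39.4 in MSX1, against 14.2, 11.2 and 12.9 in Vector. The cytidine deaminases APOBEC3G and APOBEC3H, neighbours on chromosome 22 whose sequences are alike, had differences of 0.89 and 1.32. The complement and coagulation list had 7 of 81 genes, all higher without overlap, at a median of 0.98, with PROCR, the protein C receptor, at 30.9 ± 1.99 in MSX1 and 11.8 ± 2.31 in Vector. C1QTNF1 and C1QL1 on that list are relatives of complement C1q and not complement components. The list of cytochrome P450, dehydrogenase and retinoid genes had 15 of 337 genes, 11 higher and 4 lower. CRABP2, a carrier of retinoic acid, was abundant at 115, 115 and 110 in MSX1, against 44.0, 48.6 and 57.9 in Vector. SULT1A1, a phenol sulfotransferase with near-identical relatives, averaged 16.8 ± 1.07 in MSX1 and 5.76 ± 0.42 in Vector. STRA6, the vitamin A receptor of the retinoid pathway, had a difference of 0.82. CYP1A1, the cytochrome P450 that the aryl hydrocarbon receptor induces, was lower with 1.17, 1.30 and 1.59 in MSX1, against 4.36, 3.33 and 3.02 in Vector, like TIPARP above. CYP2C18 and CYP27A1 were the other lower members, and the difference of CYP27A1, whose libraries overlapped, was -0.47, -0.26 without Vector replicate 1 and -0.74 without Vector replicate 2. Among 10 of 184 glycosyl- and sulfotransferases, 9 were higher, led by B4GALNT1, a ganglioside synthase, with 13.8 ± 0.92 in MSX1 and 4.26 ± 0.88 in Vector.

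The cilium and the long non-coding RNA lists leaned towards lower values, though their medians were 0.07 and 0.31 with the GC trend described below removed, a step that by its construction raises genes of low GC content. The cilium and dynein list had 7 of 408 genes, 2 higher and 5 lower without overlap, at a median of -0.49. Its lower members were DNAI4, RSPH10B2, DRC1, NEK11 and CCDC30, of which the first 3 name axonemal parts. NEK11 and CCDC30 were caught by symbol patterns and are not ciliary by name. The same holds for the higher members CCDC88B and CCDC69, which are coiled-coil proteins. The long non-coding RNA list had 9 genes higher and 11 lower, at a median of -0.24. PHKA2-AS1, an antisense RNA gene, had 3.32, 2.38 and 4.22 in MSX1, against 1.02, 0.23 and 0.30 in Vector. Whether reads were counted by strand is not given in the sources used here, so an antisense gene and its partner cannot be told apart.

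**Figure D3:**
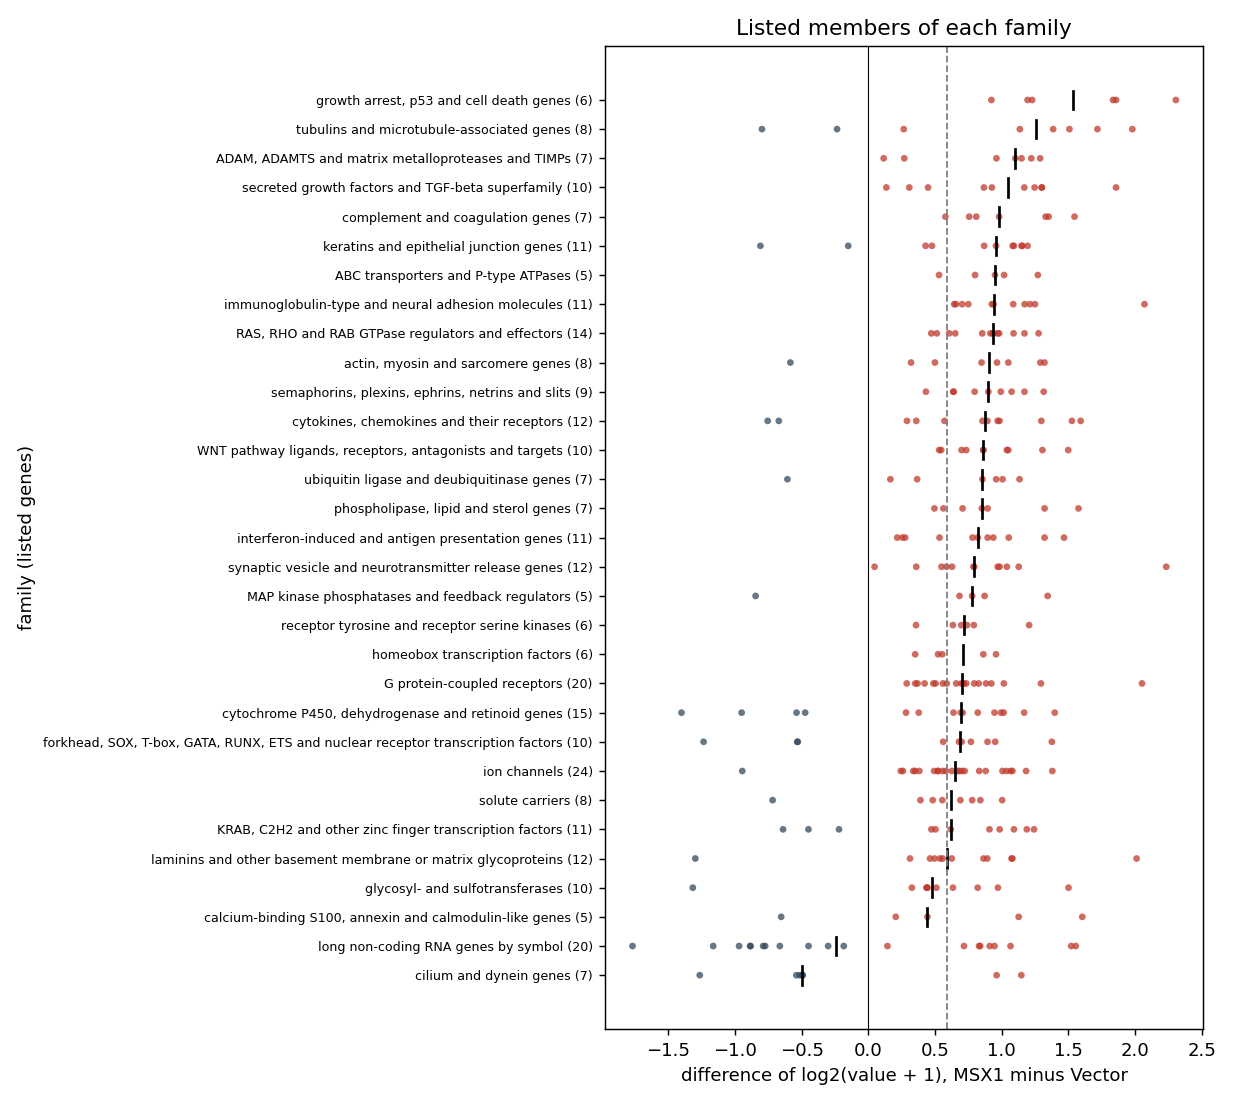
Difference of log2(value + 1), MSX1 minus Vector, of each listed member (1 point per gene, red for higher and dark for lower) in the families with at least 5 listed genes, whose number stands in parentheses. Black bars are family medians and the dashed line is the median of all 665 genes, 0.59. The median of the higher genes alone, 0.83, is not drawn. MSX1 itself lies off the scale and is not drawn. The cilium and the long non-coding RNA lists have their medians below 0, and above 0 with a GC trend removed.

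Gene classes differed between the directions. Of the higher genes with a GENCODE v29 entry 92.8% were protein coding, 5.49% long non-coding or not yet classed and 1.69% pseudogenes. Of the lower genes these shares were 75%, 18.8% and 6.25%. The 69 genes without a symbol had 24 higher and 45 lower members. Loci described as readthrough transcripts, which join 2 neighbouring genes and share their reads, numbered 15, and 14 of them were lower, 7 without overlap. SENP3-EIF4A1 was the most abundant, at 5.98 ± 1.11 in MSX1 and 11.3 ± 2.84 in Vector. Levels of readthrough loci, pseudogenes and close copies such as RASA4 and RASA4DP depend on how shared reads were divided and are uncertain.

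Base composition also separated the directions. Median transcript GC content was 59.3% over the higher genes and 47.8% over the lower genes. The promoter windows, which matched by symbol for 314 higher and 90 lower genes, had medians of 67.5% and 55.7%, beside 58.3% over 27305 RefSeq windows. Single genes departed from this, as the TIPARP window printed above shows. The core TAATTG, on either strand, was in 6 of the 314 windows of higher genes (1.91%) and in 5 of the 90 of lower genes (5.56%), beside 7.58% of all windows. Of the 4 windows shown, that of CCDC69 held it at position -245 and that of ALB at -49 from the start site. CCDC69 had 3.87, 3.70 and 5.10 in MSX1, against 1.44, 1.71 and 1.86 in Vector, and ALB had 0.82, 0.73 and 0.72 in MSX1, against 2.32, 2.12 and 1.81 in Vector. The heat shock element GAANNTTC, also on either strand, was in 6.37% and 11.1% of these windows, beside 6.87% of all. Its overlap with TAATTG was not checked. These matches describe letters in a short window. The core TAATTG is mostly A and T, and the part of base composition in its shares was not tested.

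**Figure D4:**
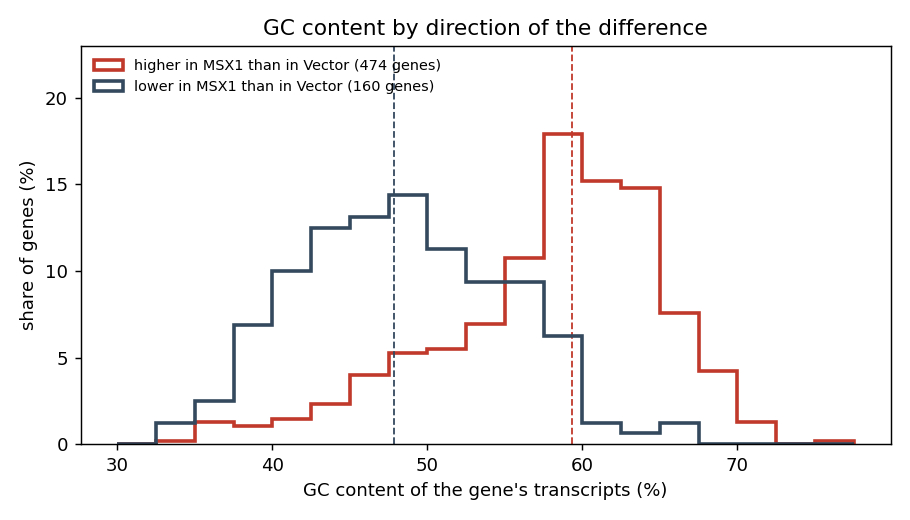
Share of genes (%) by the GC content of all their GENCODE v29 transcripts (%), for 474 genes higher in MSX1 than in Vector (red) and 160 lower (dark). Dashed lines are the medians, 59.3% and 47.8%.

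The difference in GC content between the 2 directions also shows as a slope within each library. The log2 deviation from the gene means changed per 10 points of GC% by 0.28, 0.16 and 0.29 in the MSX1 libraries, against -0.25, -0.22 and -0.27 in the Vector libraries. Because the genes were chosen for their difference between these groups, such slopes restate the GC difference between the directions. A GC effect in the libraries was not tested apart from them. With this trend removed, which also removes a part of the difference itself, 489 genes were higher and 145 lower of the 634 with a GC content. Of these 634, all MSX1 libraries lay above all Vector libraries for 390 genes, against 449 without the removal, and below them for 67, against 128 without it. The 31 genes left out for want of a GC content were 6 higher and 25 lower genes. The cilium list then had a median of 0.07, the long non-coding list of 0.31 and the chromatin list of 0.58. DNAI4 moved to -0.44, STMND1 to -0.39, TIPARP to -0.72, LINC01670 to -0.94, RPL23AP49 to -0.91 and TMEM52 to 0.96, while GADD45B at 2.11, TNC at 2.09 and NR1D1 at -1.43 changed less. The medians of the WNT list (0.56), the guidance list (0.57), the adhesion list (0.61) and the metalloprotease list (0.67) also came down by over 1.5 times. The part of GC content in these differences was not tested beyond this.

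Protein-coding listed genes were unevenly spread over chromosomes. Chromosome 19 held 76 of 560, 73 of them higher and 3 lower, which is 13.6% beside 7.38% of all protein-coding genes. Chromosome 16 held 8.04% beside 4.29%, and chromosome 22 held 5.18% beside 2.22%. Chromosome 6 held 17 of the 120 lower genes (14.2%), histone genes among them, and 17 higher genes (3.86%), beside 5.24% of all protein-coding genes. Of 44 pairs of listed genes within 20000 bases of each other, 31 were both higher, 9 both lower and 4 opposite, and 11 pairs overlapped, such as CCR10 and CNTNAP1. The pair SENP3-EIF4A1, lower, and CD68, higher, lay on one strand with a short gap.

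The same genes were set beside the mutants, which share the Vector libraries. Over the genes higher in MSX1, the median difference from the Vector mean was 0.89, 0.70 and 0.87 in the MSX1 libraries, 0.88, 0.67 and 0.58 in K139R and 0.73, 0.87 and 0.65 in K139Q. Over the genes lower in MSX1 it was -0.72, -0.70 and -0.69 in MSX1, -0.37, -0.21 and -0.11 in K139R and -0.26, -0.34 and -0.46 in K139Q. No mutant library reached an MSX1 library over the lower genes, but these genes had been chosen in the MSX1 libraries and not in the mutants. Among the named lower genes, DNAI4 had a difference from Vector of -1.26 in MSX1, of -0.16 for K139R and of -0.85 for K139Q. That of TCP10L was -1.35 in MSX1, -0.29 for K139R and -0.74 for K139Q, whereas RRP7BP was at -2.91 in MSX1, at -2.71 for K139R and at -3.19 for K139Q. Among the named higher genes, TCEAL7 was at 1.98 in MSX1, at 2.73 for K139R and at 2.30 for K139Q. PHLDA2 was at 1.83 in MSX1, at 1.00 for K139R and at 1.68 for K139Q. Differences between MSX1 and the mutants were not tested here.

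**Figure D5:**
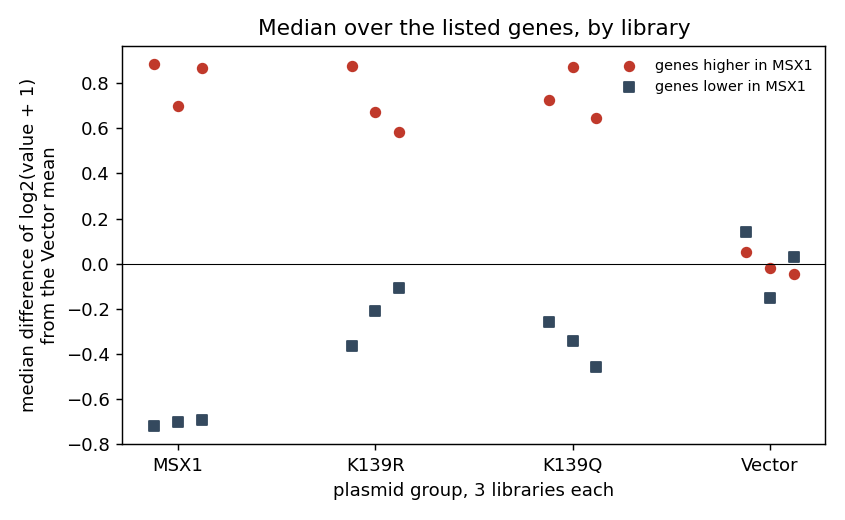
Median over the 480 genes higher in MSX1 (circles) and the 185 lower (squares) of the difference of log2(value + 1) from the mean of the 3 Vector libraries, 1 point per library. The genes were chosen in the MSX1 and Vector libraries, and the MSX1 squares lie between -0.72 and -0.69.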

How the data were processed

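Total RNA of cells labelled HEPM was sequenced in 12 libraries, and the 3 MSX1 and 3 Vector libraries were compared. The table deposited by the authors holds 1 score per gene and library, the natural log of an expression value plus 1 centred and divided by its SD gene by gene across the 12 libraries. The labels name RSEM, the paper's methods featureCounts, and the genome build and the unit of the values are not given in the sources used here. Since the values had been rounded to steps of 0.01, a whole-number search recovered them for 665 of 666 genes, each within 0.0001 steps of a whole number. RN7SL1 was not recovered and was left out. Some listed genes are not reported here. On simulated scores 199 of 200 genes were recovered exactly. Values whose steps share a common factor would come out too small by it, which leaves the differences of log2(value + 1) unchanged.

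Group means of log2(value + 1), SDs and the overlap of libraries were computed without any test (Python 3.11.15, NumPy 2.4.6, pandas 2.3.3, numba 0.67.0, matplotlib 3.10.9). Named genes were MSX1, then outside the heat shock, Notch, histone and immediate early lists the 20 largest positive and 12 largest negative differences with a symbol, no overlap and a higher group mean of at least 1, and in families of 3 or more listed genes up to 4 members with the largest differences and members against the majority. Further members outside this rule are also given, among them BIK, STRA6, APOBEC3G, ICAM1, ICAM4, ICAM5, SYT16 and MYOD1. Members and lists were chosen with earlier results of these data known. The replicate numbers, which the labels call batches, were checked as pairs: deviations of same-numbered libraries from their group means correlated at -0.03, 0.01 and -0.05 across 665 genes. Families were matched by symbol, gene classes by Ensembl ID to GENCODE v29 and promoters by symbol to RefSeq (GRCh38.p14). The alternatives were 2 other pseudocounts, a filter on low values, the plain ratio, leaving out each library, pairing by number and removal of a GC trend.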

Additional observations from a re-analysis of the deposited data

How the results depend on the processing

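The 32 genes of largest difference had been required to show no overlap, so only removal of the GC trend could have changed their direction. With that trend removed the direction held for all 32. TCP10L had no value under the filter on low values. With a pseudocount of 0.1 the genes with a difference of at least 1 numbered 430 and those of at most -1 numbered 113, with a pseudocount of 5 they numbered 36 and 4, and by the plain ratio of group means 446 and 136. The median difference of all genes was 1.19, 0.18 and 1.28 under these settings. With a mean of at least 1 over the 6 libraries required, 301 of the 424 genes left were higher, 290 had all MSX1 libraries above all Vector libraries, and the median was 0.86, since low genes had been dropped. With the GC trend removed, over the 634 genes with a GC content, 67 had all MSX1 libraries below all Vector libraries and 11 a difference of at most -1. The chromatin list's median of -0.17 was 0.038 with a pseudocount of 0.1, 0.10 by the plain ratio and 0.58 with the GC trend removed. The GC setting also turned the medians of the cilium list (0.069), the basic helix-loop-helix list (-0.19, against 0.12) and the long non-coding list (0.31), and the differences of 5 of 135 family members: ESRRG (0.27), ZBTB20 (0.30), KIF6 (0.15), ZNF596 (0.11) and ZFP2 (0.00054). Without Vector replicate 3 the difference of RUNDC3A-AS1, 0.14, became -0.0066. Leaving out 1 library gave 19 to 41 genes with a difference of at most -1, the highest without Vector replicate 2. Compared pair by pair (replicate block), 465 genes were higher and 167 lower in all 3 pairs by the title numbers, and 463 and 166 by the numbers of the library names, so the pairing changed no count by over 1.5 times.

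The reads obtained per library are unknown here, so the precision of a single value cannot be given, and values near 0 are the least certain. The table holds only genes that the authors had chosen, so no family's share of all its genes that changed can be read from it.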

Other observations

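Some further genes, all but RBFOX3 outside the lists, are given as values, chosen after these had been seen. HLF and TEF, bZIP factors that the circadian clock drives, were lower like NR1D1. HLF averaged 1.25 ± 0.316 in MSX1 and 3.19 ± 0.753 in Vector, and TEF averaged 4.92 ± 0.376 in MSX1 and 9.31 ± 1.12 in Vector. CTH, the enzyme that makes cysteine in the transsulfuration pathway, had 20.8, 21.6 and 18.3 in MSX1, against 38.1, 42.0 and 38.0 in Vector. ISYNA1, the enzyme of inositol synthesis, was among the most abundant listed genes, with 323, 294 and 319 in MSX1, against 138, 141 and 153 in Vector. LBH, a transcriptional cofactor of limb bud and heart, averaged 18.5 ± 1.03 in MSX1 and 6.39 ± 0.67 in Vector. RBFOX3, a splicing regulator on the list of RNA-binding genes, rested partly on 1 library, with 14.3, 4.37 and 5.48 in MSX1, against 2.47, 2.37 and 2.60 in Vector, and its difference of 1.22 became 0.76 without MSX1 replicate 1.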
